A study of Mus musculus with 6 samples.

Results

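Adrenergic receptors are the G-protein-coupled receptors of noradrenaline and adrenaline. The alpha1 receptors act through Gq proteins and phospholipase C, the alpha2 receptors lower cyclic AMP through Gi and Go proteins, and the beta receptors raise it through Gs. In sensory pathways the alpha2 receptors are best known as the targets of clonidine and dexmedetomidine, drugs that relieve pain, and noradrenaline released by sympathetic fibres has long been studied as a modulator of injured sensory neurons. The account below covers 8 receptor genes, chosen by their symbols in the deposited gene counts: Adra1a, Adra1b, Adra1d, Adra2a, Adra2b, Adra2c, Adrb1 and Adrb3. They are 8 of 38926 gene symbols counted.

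The tissue was the dorsal root ganglion, which holds the cell bodies of sensory neurons outside the spinal cord, collected whole at the lumbar levels L3, L4 and L5. All 6 libraries came from male wild-type C57BL/6 mice aged 6 to 8 weeks. The burn group had 3 libraries, collected at day 3 after injury, and the control group had 3, which the labels describe no further. The labels do not state whether ganglia of several mice were pooled or came from separate mice, so the p-values reflect only how far these samples scatter, and that scatter may be technical. One burn library is titled as ipsilateral and carries no number, and it is called burn 3 here; the side of the others is not given.

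Between 17273908 and 81968142 reads fell in genes in a library. The totals split into 2 deeper libraries, control 3 and burn 3, and 4 shallower ones. The deeper 2 also stood apart from the 4 shallower ones on the main axis of variation between libraries, which held 39.4% of the variance. Depth and other differences between these 2 sets of libraries cannot be told apart. All 10 sensory neuron markers passed the filter on low counts, with a summed level of 6834 to 9129 CPM (read counts scaled to a common library size) per library. The 9 markers of sympathetic neurons summed to 9.05 to 16.6 CPM per library, and 3 of them passed the filter: Slc6a2, Slc18a2 and Chrna3. Among the others, Dbh, the enzyme that makes noradrenaline, had at most 4 reads in a library. Atf3, a marker of injured sensory neurons, was called higher after the burn (log2 fold change 3.37, SE 0.15, edgeR adjusted p 0.000387). Spinal cord markers also differed, with a summed level of 66.2 to 122 CPM in controls and 124 to 290 after the burn, and 9 of 10 were higher at an unadjusted p under 0.05, where 2.04% of all tested genes were; their part in the receptor values was not tested.

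Because these receptors form a family of related sequences, the reading of single genes depends on whether a read of 75 nucleotides can tell them apart. Across all 28 pairs of the 8 coding sequences, the longest run of identical bases had a median of 12 and a maximum of 30. The closest pair was Adrb1 and Adrb3, whose shared run codes for part of the sixth membrane-spanning helix. The pair with the next longest run, 26 bases, was Adra2a and Adra2c, the most abundant receptors in these libraries. The windows below are 1 read long, from GENCODE release M21 transcripts on GRCm38, 5′ to 3′ on the coding strand, with the shared run in capitals. They lie at chr19:56723322-56723396 on the plus strand (Adrb1), chr8:27227467-27227541 on the minus strand (Adrb3), chr19:54046653-54046727 on the plus strand (Adra2a) and chr5:35280333-35280407 on the plus strand (Adra2c).
Adrb1: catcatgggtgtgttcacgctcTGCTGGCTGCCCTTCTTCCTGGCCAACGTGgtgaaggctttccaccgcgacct
Adrb3: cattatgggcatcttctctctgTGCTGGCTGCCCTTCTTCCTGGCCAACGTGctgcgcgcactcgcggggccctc
Adra2a: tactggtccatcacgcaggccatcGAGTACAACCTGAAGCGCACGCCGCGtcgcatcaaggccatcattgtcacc
Adra2c: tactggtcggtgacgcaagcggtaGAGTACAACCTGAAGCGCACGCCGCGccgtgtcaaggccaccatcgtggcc
The first pair of windows differs at 22 of 75 bases and the second pair at 14 of 75. No coding run shared within the 8 genes is as long as a read. Untranslated exon sequence, which is also counted, and genes outside the 8 were not compared.

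All 8 genes are annotated as protein-coding on GRCm38. Adra2a (chromosome 19, 54044151 to 54048982), Adra2b (chromosome 2, 127363208 to 127367221) and Adra2c (chromosome 5, 35278319 to 35281763) each consist of 1 exon block, so their counts cannot separate spliced from unspliced RNA. Adra1a (chromosome 14, 66635251 to 66771168), Adra1b (chromosome 11, 43774606 to 43901210) and Adra1d (chromosome 2, 131545850 to 131562283) hold 5, 5 and 2 exon blocks. Adrb1 lies on chromosome 19 at 56722199 to 56733113 and Adrb3 on chromosome 8 at 27225776 to 27250616. On the opposite strand the exons of Adra1d overlap those of Gm14285 by 147 bases and the exons of Adrb3 overlap those of Gm45470 by 839 bases. The libraries were stranded, but whether the counting used strand is not stated in the labels. Gm14285 had at most 6 reads in a library, and Gm45470 was not among the gene symbols counted.

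The alpha2C receptor gene dominated the family in the ganglion. On the scale of CPM per kilobase of exon, which allows levels of different genes to be compared, Adra2c stood at 5.71 ± 1.001 (mean ± SD over 6 libraries), followed by Adra2a at 1.83 ± 0.568. Adra2c was first and Adra2a second in each of the 6 libraries, and their ranges, 4.78 to 7.38 and 1.35 to 2.78, did not touch. The level of Adra2c exceeded that of 56.1% of the 16565 tested genes with an annotated length, and that of Adra2a exceeded 30.02%. Next came Adra1d at 1.06 ± 0.168 and Adra1b at 0.858 ± 0.191, which changed places between libraries. The last 4 were Adrb1 at 0.330 ± 0.0657, Adra1a at 0.249 ± 0.0634, Adra2b at 0.236 ± 0.160 and Adrb3 at 0.219 ± 0.152, and their ranges overlapped. Adra1a depends on the length taken, because its annotated exons cover 8728 bases together and 4282 in the longest transcript, which would put it at 0.509 ± 0.129 and in place 5.

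**Figure D1:**
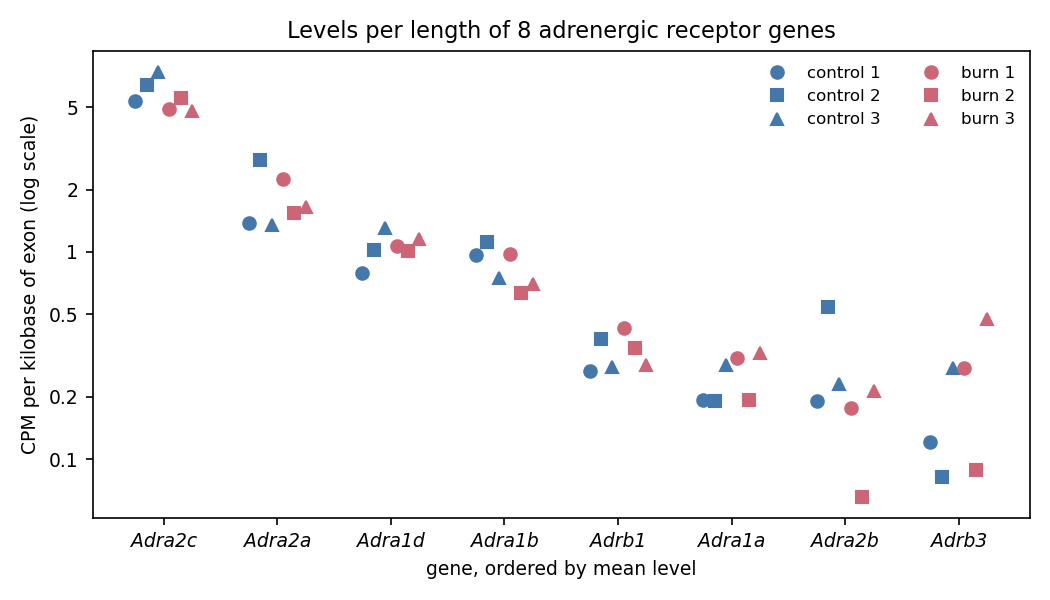
Level of each receptor gene in CPM per kilobase of exon (log axis), 1 point per library, with genes ordered by their mean over 6 libraries. Adra2c lies between 4.78 and 7.38 and Adra2a between 1.35 and 2.78, above the other 6 genes, and the 4 genes on the right overlap.

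By receptor class, the alpha2 genes made up 69.4% to 77.6% of the summed level per kilobase of the 8 genes in each library, the alpha1 genes 18.7% to 22.8% and the beta genes 3.68% to 7.90%. The length taken was that of all annotated exons together, and shares with the longest transcript were not computed. The alpha2 share was 76.01 ± 1.501% in controls and 71.9 ± 3.45% after the burn (n = 3), and the beta share 4.18 ± 0.497% and 6.43 ± 1.69%. Both overlapped between the groups. Burn 2 resembled the controls in both shares (75.8% and 4.59%), while burn 1 and burn 3 had the lowest alpha2 shares (70.4% and 69.4%) and the highest beta shares (6.81% and 7.90%). The ratio of Adra2c to Adra2a per length ran from 2.17 in burn 1 to 5.45 in control 3. Its values overlapped between groups too, at 2.30 to 5.45 in controls and 2.17 to 3.57 after the burn.

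The comparison of burn with control ganglia asks which transcripts of sensory ganglia accompany burn pain. No adrenergic receptor gene was called. All 8 passed the filter on low counts, and 0 of 8 passed edgeR's quasi-likelihood test at an adjusted p under 0.05, where 0.0228% of the 17534 genes tested passed. At an unadjusted p under 0.05 edgeR had 0 of 8, against 2.96% of all genes (2.04% higher and 0.924% lower). DESeq2 called 0 of 8 (0.132% of the genes with an adjusted p) and limma-voom 0 of 8 (0.0171%). In none of the 8 did the burn and control CPM values separate without overlap, which 7.24% of all tested genes did (4.33% with every burn value above and 2.91% with every burn value below). The log2 fold changes, burn minus control, were positive in 4 and negative in 4, with a median of 0.02 over the 8 and 0.0080 over all genes tested, of which 52.1% were positive. The edgeR adjusted p was 0.9998 for each of the 8, and 95% intervals of the fold change are given below, since a p that misses the threshold does not show equal levels. In whole tissue, fewer cells of a type and less RNA per cell cannot be told apart.

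**Figure D2:**
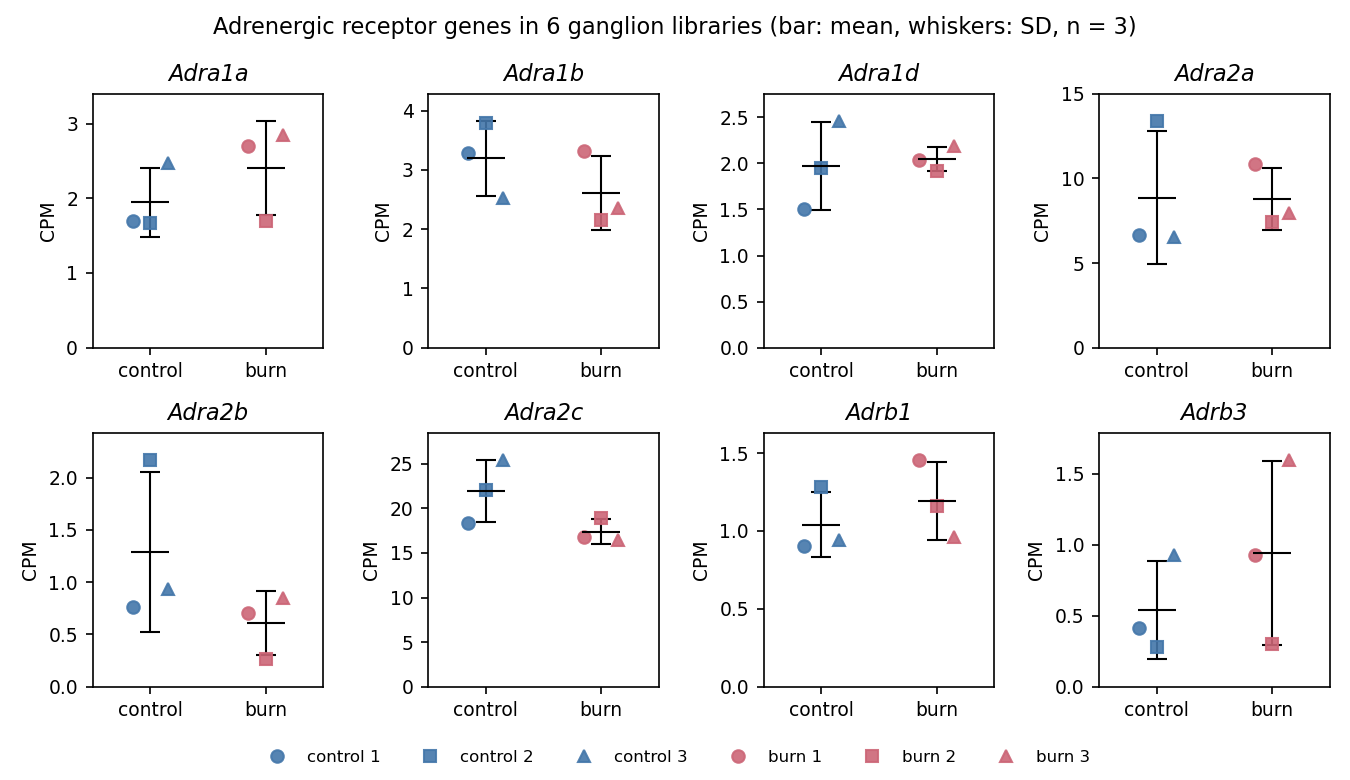
CPM of each receptor gene in the 3 control and 3 burn libraries, 1 point per library, with the group mean (bar) and SD (whiskers, n = 3); each panel has its own axis, starting at 0. The groups overlap in all 8 panels, most narrowly in Adra2c, where only burn 2 (19.0) exceeds the lowest control (18.4).

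Adra2c, which encodes the alpha2C receptor of neurons, came closest to the threshold. Its CPM was 18.4, 22.04 and 25.4 in controls 1 to 3, and 16.8, 19.0 and 16.5 in burn libraries 1 to 3. The groups overlapped only through burn 2, which lay just above control 1. The means were 21.95 ± 3.51 and 17.4 ± 1.37 CPM (SD, n = 3), a fold change of 0.792 (95% interval 0.623 to 1.01) and a log2 fold change of -0.34 (SE 0.15, edgeR unadjusted p 0.0551). This p was the 586th lowest of the 17534 tested. The 2 deeper libraries differed by -0.63 on the log2 scale and the 4 shallower ones by -0.17, so the pair with the most reads also had the larger difference. All 10 sensory neuron markers had negative log2 fold changes in the same comparison, with a median of -0.11. Between the 2 deeper libraries 10 of 10 were negative and among the 4 shallower ones 4 of 10, and their part in the difference was not tested.

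Adra2a encodes the alpha2A receptor, through which clonidine and dexmedetomidine calm and relieve pain. Its CPM was 6.66, 13.4 and 6.55 in controls and 10.9, 7.45 and 7.99 after the burn. Control 2 was the highest library, and its counting interval (95% exact Poisson 11.8 to 15.2) lay above those of controls 1 and 3 (5.85 to 7.55 and 6.00 to 7.13). That interval overlapped the one of burn 1 (9.55 to 12.3). The group means, 8.87 ± 3.93 and 8.77 ± 1.84 CPM (n = 3), gave a fold change of 0.997 (0.603 to 1.65; log2 fold change -0.0044, SE 0.31). Without control 2 the log2 fold change was 0.40.

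Adra2b encodes the alpha2B receptor, known for constricting blood vessels. It had 28, 39 and 74 reads in controls, or 0.765, 2.17 and 0.930 CPM, and 16, 8 and 56 reads after the burn, or 0.707, 0.265 and 0.852 CPM. Control 2 stood above all other libraries and burn 2 below them, and the remaining 4 lay close together. The fold change was 0.509 (0.215 to 1.21; log2 fold change -0.97, SE 0.53). It was -0.46 on the log2 scale without control 2, and -0.63 without burn 2. The 2 deeper libraries differed by only -0.12 and the 4 shallower ones by -1.47. Some markers of contractile vessel cells had their extremes in the same libraries: Acta2, smooth muscle actin, stood at 59.0 CPM in control 2 and 16.03 in burn 2, against 25.6 to 33.6 in the others, and Cnn1, smooth muscle calponin, at 7.90 and 1.06, against 2.12 to 3.58. The summed level of all 12 mural and smooth muscle markers did not follow this order. It stood at 718, 704 and 520 CPM in controls 1 to 3 and at 586, 639 and 568 in burn libraries 1 to 3. Burn 2, lowest for Adra2b, thus had the highest sum of the burn libraries. Of the 12 markers, 10 had negative log2 fold changes and none was at 0 in all libraries. Between the 2 deeper libraries 9 of 12 were positive and among the 4 shallower ones 1 of 12. The part of these 12 markers in the Adra2b values was not tested, and Acta2 and Cnn1 were singled out after their values were seen.

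**Figure D3:**
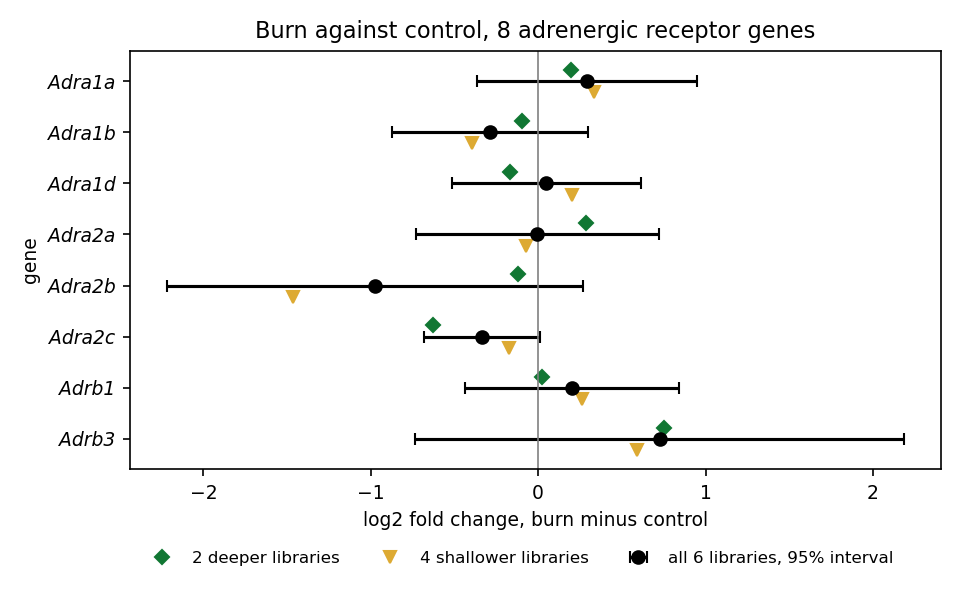
Log2 fold change of each receptor gene, burn minus control, from edgeR over all 6 libraries with its 95% interval (circles and bars), beside the differences in mean log2 CPM between the 2 deeper libraries (diamonds) and among the 4 shallower ones (triangles). Every interval spans 0; Adra2b, Adra2c and Adrb3 lie farthest from it, and Adra1d and Adra2a have opposite signs in deeper and shallower libraries.

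The alpha1 genes, whose receptors contract smooth muscle and excite cells through Gq, showed no common direction. Adra1a, the alpha1A receptor, stood at 1.69, 1.67 and 2.48 CPM in controls and 2.69, 1.69 and 2.84 after the burn. Its fold change was 1.23 (0.777 to 1.93; log2 fold change 0.29, SE 0.28). Adra1b, the alpha1B receptor, stood at 3.28, 3.78 and 2.53 CPM in controls and 3.31, 2.15 and 2.36 after the burn. It had a fold change of 0.819 (0.545 to 1.23; log2 fold change -0.29, SE 0.25), opposite in sign to Adra1a. Adra1d, the alpha1D receptor of arteries, stood at 1.502, 1.95 and 2.46 CPM in controls and 2.03, 1.92 and 2.19 after the burn. All its burn values lay within the range of its controls (fold change 1.03, 0.699 to 1.53; log2 fold change 0.05, SE 0.24). The highest Adra1a values were those of burn 3, burn 1 and control 3, so both deeper libraries were among them.

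Adrb1 encodes the beta1 receptor, the main adrenergic receptor of heart muscle. It had 33, 23 and 75 reads in controls and 33, 35 and 63 after the burn, or 0.901, 1.28 and 0.942 CPM against 1.46, 1.16 and 0.958. The groups overlapped widely, and the fold change was 1.15 (0.738 to 1.79; log2 fold change 0.20, SE 0.28).

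Adrb3 encodes the beta3 receptor, which drives fat breakdown and heat production in adipocytes. It had 15, 5 and 74 reads in controls and 21, 9 and 105 after the burn. In CPM these were 0.410, 0.278 and 0.930 against 0.928, 0.298 and 1.60, so each group held both low and high libraries and burn 3 was the highest. The fold change of 1.65 had the widest interval of the 8 genes (0.601 to 4.55; log2 fold change 0.73, SE 0.63). Leaving out 1 deeper library moved it, to a log2 fold change of 0.02 without burn 3 and 1.45 without control 3. With both left out, the 4 shallower libraries alone gave 0.71, close to the value over all 6. With 5 reads in control 2, the counting interval there ran from 0.0903 to 0.649 CPM.

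Within the burn group, adipocyte markers had their highest summed level in burn 3 and their lowest in burn 2, as Adrb3 did. In controls the orders differed, since Adrb3 was highest in control 3, where the marker sum was lowest. The 9 markers summed to 67.1, 55.4 and 49.9 CPM in controls and 58.3, 39.9 and 97.3 in burn libraries 1 to 3, and 7 of the 8 tested had a positive log2 fold change. Between the 2 deeper libraries 8 of 8 were positive and among the 4 shallower ones 0 of 8, where Adrb3 differed by 0.59 on the log2 scale. Plin4, which coats fat droplets, was highest of the burn libraries in burn 2 (17.2 CPM, against 8.57 in burn 1 and 11.5 in burn 3). Adipoq, which encodes the fat hormone adiponectin, stood at 6.85, 4.01 and 4.35 CPM in controls and 5.52, 2.09 and 8.27 after the burn. Ucp1, the uncoupling protein of brown fat, had 135 reads in burn 3 and 6, 1, 5, 1 and 2 in controls 1 to 3 and burn libraries 1 and 2. Burn 3 was thus the library with the highest CPM of Adrb3, Adipoq and Ucp1, but not of Plin4. No marker of the list was at 0 in all libraries, and the part of adipocyte RNA in the Adrb3 values was not tested. Plin4, Adipoq and Ucp1 were singled out after their values were seen.

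No gene that makes, stores or removes noradrenaline was called either. Of 10 listed, 8 were tested and 0 were called, with 4 positive and 4 negative log2 fold changes and a median of 0.0057. Th, tyrosine hydroxylase, which is also a marker of a class of touch-sensing C fibres in the ganglion, stood at 80.8 ± 7.41 CPM in controls and 73.2 ± 7.79 after the burn (n = 3). The lowest unadjusted p-values were those of Slc6a2, the noradrenaline transporter (0.755 ± 0.230 and 1.28 ± 0.501 CPM; log2 fold change 0.77, SE 0.36), and Maob, a monoamine oxidase (0.28, SE 0.20). Dbh and Pnmt, the enzymes that make noradrenaline and adrenaline, had 12 and 14 reads in all 6 libraries together and were not tested.

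Genes of the proteins that carry the receptor signal were not called either. All 9 G protein alpha subunits were tested and 0 called, with a median log2 fold change of -0.03; the lowest p-values were those of Gnao1, the Go subunit (252 ± 42.3 and 276 ± 25.3 CPM; 0.13, SE 0.15), and Gnaz (-0.10, SE 0.13). Among 13 adenylyl cyclases and phospholipases C beta 0 were called (median 0.07). Adcy8, a calcium-stimulated cyclase, stood at 9.28, 11.4 and 11.7 CPM in controls and 14.0, 12.2 and 13.5 after the burn, without overlap (log2 fold change 0.29, SE 0.14, edgeR adjusted p 0.9998). Adcy6 had -0.19 (SE 0.17). For the 7 receptor kinases and arrestins, which switch activated receptors off, the median was -0.02 with 0 called; Arrb1, beta-arrestin 1, had 0.16 (SE 0.12) and Grk6 -0.17 (SE 0.14). Among 11 RGS proteins, which speed the return of G proteins to rest, 0 were called and 7 had negative signs (median -0.09); Rgs10 had -0.17 (SE 0.11) and Rgs3 -0.15 (SE 0.10).

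Potassium channels opened by Gi and Go proteins, a route by which alpha2 receptors quiet neurons, included the gene with the widest difference of these lists, Kcnj5. Kcnj5, a subunit of these channels, had 57, 18 and 63 reads in controls and 8, 22 and 18 after the burn. In CPM it stood at 1.56, 1.002 and 0.792 against 0.353, 0.729 and 0.274, so every burn library lay below every control. Its log2 fold change was -1.33 (SE 0.45, edgeR unadjusted p 0.0192, adjusted p 0.9998). Kcnj6 had a positive value of 0.52 (SE 0.28), and the median of the 4 channel genes was -0.0081. Over the 6 lists together, 52 of 54 genes were tested, 25 positive and 27 negative, 0 were called. Kcnj5 was the 1 gene of 52 with an unadjusted p under 0.05, against 2.96% of all tested genes. The groups did not overlap in 4 of 52, against 7.24%, so both counts are near the level of all genes.

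**Figure D4:**
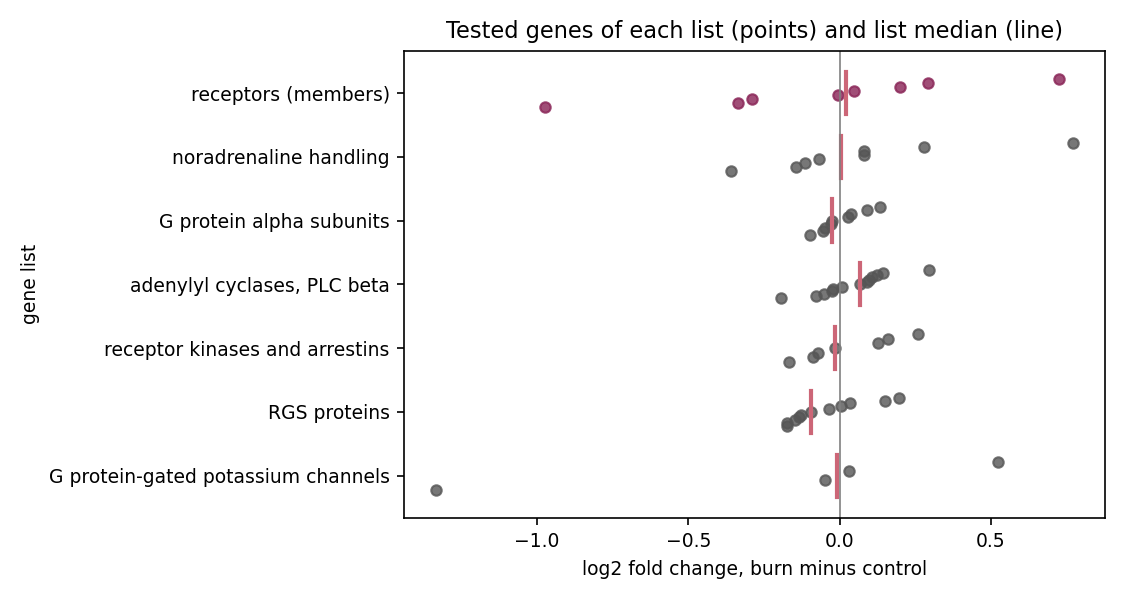
Log2 fold change, burn minus control, of each tested gene in the receptor family and in the 6 lists of genes that handle noradrenaline or carry the receptor signal (points), with the list median (short vertical line). Medians lie between -0.09 and 0.07; Kcnj5 at -1.33 and Adra2b at -0.97 are the lowest points.

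The genes whose pattern over the 6 libraries was most like that of Adra2c were 2900008C10Rik, Vstm2l and Prrt3. Their log2 CPM, centred on the gene's mean, differed from that of Adra2c by a mean of 0.02, 0.04 and 0.05, where the median over 15529 genes was 0.24. Those most like Adra2a were Fbxl7, Mill2 and Athl1, at 0.05, 0.07 and 0.07 against a median of 0.36. The first group had its highest value in control 3 and the second in control 2, as the receptor genes themselves did. With 6 libraries and this many genes, close matches of pattern are a description of these libraries.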

How the data were processed

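Reads of 75 nucleotides, single-end, were sequenced, per the labels' protocols, from total RNA libraries that keep strand. The deposited files, 1 per library, hold the authors' raw counts for each gene symbol. Per the submitters' processing notes, the tools were STAR, SAMtools and HTSeq and the builds GRCm38 and mm10; versions and the annotation release are not stated there. HTSeq tally lines, 49.2% to 56.2% of all entries, were left out.

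Counts were tested with edgeR 4.0.16 in R 4.3.3: filterByExpr (minimum count 10, minimum total 15), TMM scaling, robust glmQLFit and glmQLFTest on group, two-sided, with Benjamini-Hochberg adjustment over 17534 genes. The SE is the log2 fold change divided by the square root of F, and 95% intervals use the test's degrees of freedom. CPM use scaled library sizes; the 2 groups by depth are compared as mean log2 CPM with a prior count of 2. Exon lengths and coordinates came from GENCODE M21 (GRCm38), which held 91.6% of the symbols. Intervals on counts cover counting error only, since reads carry no molecular identifiers. DESeq2 1.42.0 and limma 3.58.1 were alternatives.

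The members and lists were chosen with earlier results of these data known. Named were all 8 receptors, called members and the 2 lowest p-values of each pathway list, called members of marker lists, and the 3 genes most like each of the 2 receptors with the highest CPM; other genes named were chosen after their values were seen. The older symbols Adrbk1, Adrbk2, Fam19a4 and Emr1 stand for Grk2, Grk3, Tafa4 and Adgre1 in the count tables. Some items are not reported here. Marker lists not named elsewhere gave 0 calls each. Their median log2 fold changes were -0.03 (peptidergic), 0.01 (non-peptidergic), -0.05 (C-LTMR) and 0.03 (neurofilament) for sensory neuron classes. For sympathetic neurons, with only 3 of 9 markers tested, the median of 0.34 was the value of Chrna3 (SE 0.30). Medians were -0.01 for satellite glia, -0.12 for Schwann cells, -0.04 for endothelium, 0.21 for macrophages and -0.01 for skeletal muscle.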

Additional observations from a re-analysis of the deposited data

How the results depend on the processing

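No receptor gene was called under any of 17 alternatives (scaling, filter, DESeq2, limma-voom, depth, replicate block, each library left out). Lower signs of Adra1b, Adra2b and Adra2c and higher signs of Adra1a, Adrb1 and Adrb3 held wherever these genes were tested. Adra2c, at -0.45 to -0.16, had an unadjusted p under 0.05 in 5 of 17 (adjusted p at least 0.871). Adra2a turned positive with RLE factors (0.0070), a minimum count of 50 (0.012), DESeq2 (0.00089), limma-voom (0.14), a depth term (0.024) and thinning (0.030), and ranged from -0.19 to 0.40 with a library left out. Adra1d ranged from -0.12 to 0.27 there. Thinning to the smallest total took Adrb3 to 0.21. Adra2b, Adrb1 and Adrb3 were not tested at a minimum count of 50.

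Over all genes, calls went from 4 higher and 0 lower to 14 higher without a filter, 2 at a minimum count of 50, 28 with DESeq2, 17 higher and 21 lower with a depth term, 11 and 4 in the 4 shallower libraries, and 1 to 6 higher with a library left out (1 without control 1, 2 or 3 or burn 2). Only numbers 1 and 2 stand in the titles of both groups, and same-numbered libraries did not deviate together (r = -0.09 and -0.06 over 17534 genes). Depth and muscle markers also differed between libraries, so these correlations cannot tell whether equal numbers mark pairs. The main test used no pairing. Control 1 with burn 2 and control 2 with burn 1 gave 0.38 and 0.44; skeletal muscle markers summed to 12030 and 11023 CPM in control 1 and burn 2 and to 713 to 4032 in the others. A replicate block on these 4 libraries gave 4 higher calls and 0 receptors (Adra2c -0.16, Adra2b -1.48). Depth limits Adra2b, Adrb1 and Adrb3 most, with 5 to 105 reads per library. Place by level changed for 4 genes with the longest transcript as length.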
